A study of Mus musculus with 9 samples.

Results

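The RNA of cultured primary mouse hepatocytes given Bobcat339 was compared with that of cells given DMSO across all genes measured. The 6 libraries were chosen by the treatment in their labels, 3 for Bobcat339 and 3 for DMSO, out of 9 in the series. The other 3 are labelled as hepatocytes given 4-octyl itaconate. They serve here only to estimate the spread between libraries, to set which genes were tested and in the scaling for composition. Per the labels, hepatocytes of both groups were seeded in DMEM with antibiotics, attached for 4 h, and had fresh medium for 24 h before lysis in Trizol. The same protocol says that cells were given Remodelin hydrobromide or not before the other agents, and no label says which libraries had it. In the study's methods, hepatocytes came from male C57BL/6 mice and were released by collagenase from livers after partial hepatectomy. There they were given Bobcat339 for 24 h. For these libraries the labels give neither the surgery nor a dose. Nothing says that the replicates were separate animals or cultures. The p-values thus measure only how these libraries vary, which may be technical.

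Bobcat339 is a small molecule described as an inhibitor of the ten-eleven translocation (TET) enzymes, and DMSO is the solvent it is given in. TET enzymes are dioxygenases that use iron, oxygen and 2-oxoglutarate to oxidise 5-methylcytosine in DNA, a first step towards removing the methyl group, and methylated CpG sites at promoters are associated with silent genes. Hepatocytes are the metabolic and secretory cells of the liver. A freshly plated preparation also carries some Kupffer cells, the resident macrophages of the liver, and endothelial cells of the sinusoids.

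Library totals were 67434312 to 68247951 deposited counts with DMSO and 81046789 to 81685369 with Bobcat339. Each was taken to be about 4 times its number of read pairs, which was not counted. Levels are given as counts scaled to a common library size (CPM) after scaling for composition, in the order of replicates 1, 2 and 3. The label was checked first. The 12 hepatocyte markers summed to between 32519 and 33167 CPM with DMSO and between 28941 and 31453 CPM with Bobcat339. The secreted protein gene Alb alone stood at 24493, 24689 and 24698 CPM and 20517, 23719.8 and 23274 CPM. The 3 libraries labelled 4-octyl itaconate went against their label. Their hepatocyte markers summed to 1868 to 2046 CPM, their macrophage markers to 7523 to 7702 CPM (769.5 to 824 CPM with DMSO) and their endothelial markers to 4443 to 4667 CPM (159 to 183 CPM with DMSO). The estimate of spread, the filter and the scaling for composition thus draw on unlike material. A fit of the 6 libraries alone, which leaves these 3 libraries out, called 1863 genes higher and 1618 lower of 16992 tested. Where it or DESeq2 moves the count of a list by over 1.5 times and by at least 2 genes, that count is given with the list.

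Bobcat339 replicate 1 stood apart from its group. In it, 66 genes were at least 4-fold above both other Bobcat339 libraries (0.5 CPM added to each level), against 1 to 7 genes in any other library of the series, and 64 of the 66 were protein coding. The median of the 66 genes was 86.1% of the DMSO mean in Bobcat339 replicate 1, 8.82% in replicate 2 and 7.15% in replicate 3. Many are genes of the gut lining, and 16 of them were on a list of 30 intestinal epithelium genes. The list as a whole summed to 667, 585 and 649.9 CPM with DMSO and to 586, 202 and 178 CPM with Bobcat339. Among its 26 genes at 1 CPM or more with DMSO, the median level was 87.0% of the DMSO mean in Bobcat339 replicate 1 and 9.48% and 9.40% in replicates 2 and 3. So intestinal transcripts were present in all 3 DMSO libraries and in 1 of 3 Bobcat339 libraries at a like level, and were low in the other 2. Every comparison below was therefore run with and without Bobcat339 replicate 1.

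**Figure D1:**
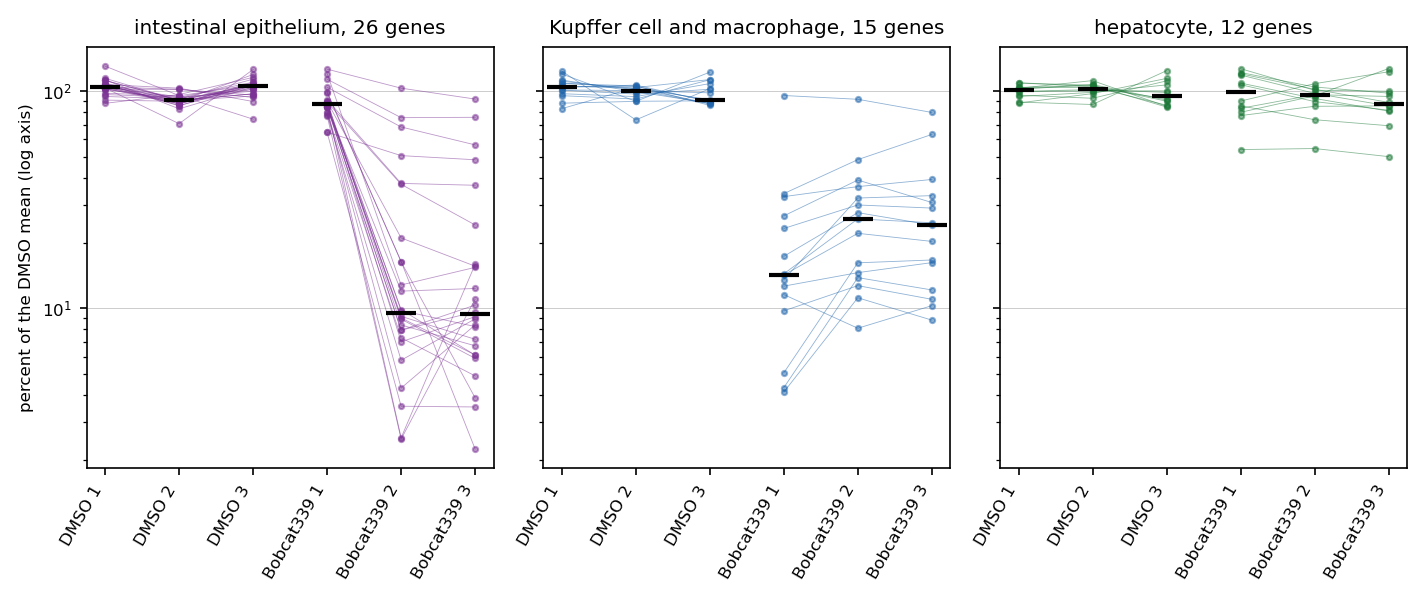
Level of each marker gene in each of the 6 libraries as a percent of its DMSO mean (log axis), for genes at 1 CPM or more with DMSO, with 1 thin line per gene within a group and a black bar at the median. The median of the 26 intestinal genes is 87.0% in Bobcat339 replicate 1 and 9.48% and 9.40% in replicates 2 and 3, the macrophage genes are low in all 3 Bobcat339 libraries, and the medians of the 12 hepatocyte genes stay near the DMSO level, with Hnf4a the lowest gene in each Bobcat339 library.

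The leading rises were in metal, heat shock and signalling genes, and the leading falls were in macrophage genes. Of 18379 genes tested by edgeR's quasi-likelihood test, 2136 were higher with Bobcat339 (11.6%) and 1666 were lower (9.06%), or 20.7% in all at an adjusted p under 0.05. At least a 2-fold change was fitted for 303 of the higher and 549 of the lower genes. Without Bobcat339 replicate 1 the counts were 2255 higher (11.7%) and 1860 lower (9.68%) of 19212 tested. The higher calls shared 1890 genes, which is 88.5% of those with the library and 83.8% of those without it, and the lower calls shared 1426 genes (85.6% and 76.7%). The counts were lower without Bobcat339 replicate 2 (1421 higher, 1064 lower) and without DMSO replicate 1 (1380 and 1046), and the lower count was 1102 without DMSO replicate 2. Calls kept in each of the 6 fits that left out 1 library numbered 1242 higher (6.76%) and 898 lower (4.89%).

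The balance between rises and falls depended on the scaling. Higher genes made up 56.2% of calls here, 46.1% with RLE scaling, 45.1% with DESeq2 and 50.1% with scaling by library size only. The median log2 fold change over all genes tested was -0.01, and -0.08 with RLE scaling, so the scalings differ by less than 0.1. Direction also followed level: at a mean of 100 CPM or more 536 genes were higher and 156 lower of 2068, and between 1 and 10 CPM 208 were higher and 569 lower of 4073. Protein-coding genes were called most often (14% higher and 10.9% lower of 14531), against 2.2% and 1.9% of 1853 long non-coding genes.

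**Figure D2:**
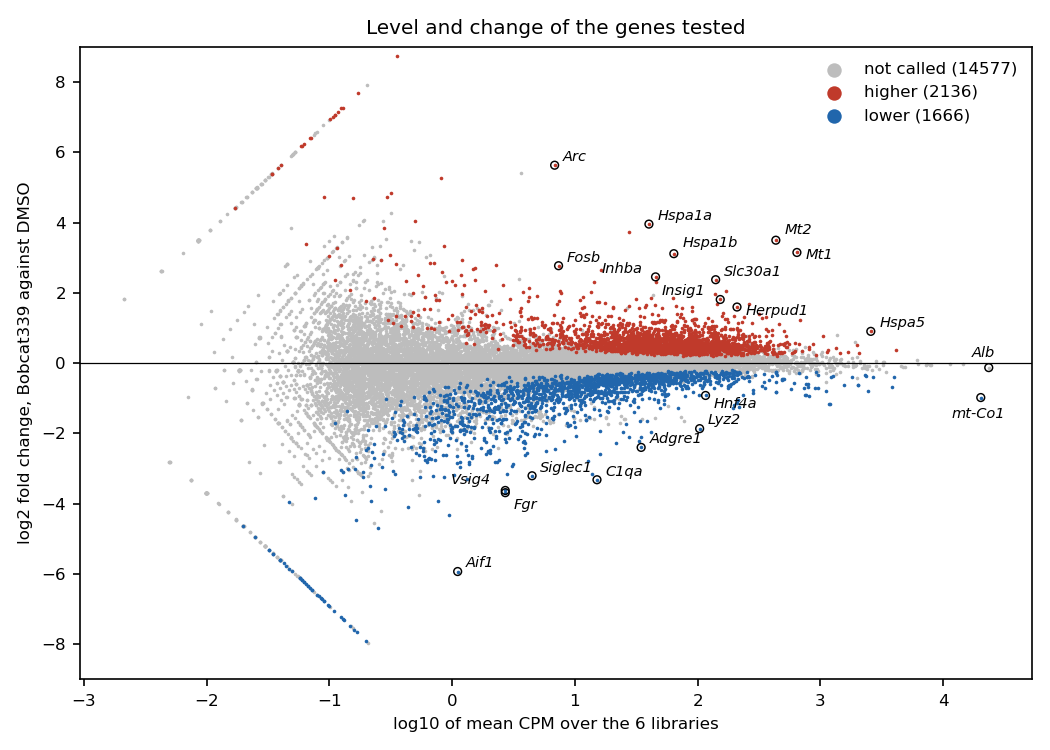
Log2 fold change of Bobcat339 over DMSO (vertical axis) against log10 of the mean CPM over the 6 libraries (horizontal axis) for each gene tested, with the 2136 higher and 1666 lower genes coloured. Genes at 0 in all 6 libraries (67) and 2 genes beyond 9 on the log2 scale are not drawn, and the leading rises Mt1, Mt2 and Hspa1a sit at higher levels than the leading falls Fgr, Vsig4 and Aif1.

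The largest rise was in Arc, an immediate early gene best known from activated neurons, which stood at 0.282, 0.462 and 0.0599 CPM with DMSO and 14.3, 12.8 and 13.2 CPM with Bobcat339. No library of one group reached the range of the other, as the choice of leading genes required. The fitted rise was 49.6-fold (log2 fold change 5.63 ± 0.47, adjusted p = 2.7e-05). Here and below ± gives an approximate standard error, the size of the log2 fold change divided by the square root of the test's F value. Next came the inducible heat shock gene Hspa1a, the metallothioneins Mt2 and Mt1, and Hspa1b, described below with the promoters of all but Mt1. Fosb, an AP-1 subunit made early after stimulation, went from 2.1, 2.22 and 1.32 to 13.8, 12.4 and 12.3 CPM, a 6.83-fold rise. Rrad, a small Ras-like GTPase, went from 3.98, 5.07 and 4.42 to 28.1, 29.2 and 27.7 CPM, or 6.31-fold higher. Both were at a like level in all 3 Bobcat339 libraries.

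Other leading rises were in genes of several kinds. Inhba, which encodes the activin A subunit, stood at 12.5, 12.9 and 16.6 CPM with DMSO and 59.4, 76.7 and 94.3 CPM with Bobcat339 (5.48-fold). Pdk4, the kinase that turns pyruvate away from oxidation, stood at 16.1, 13.2 and 17.6 CPM with DMSO and 69.8, 77.3 and 83 CPM with Bobcat339 (4.91-fold). Cebpd, a transcription factor of the acute phase, stood at 4.99, 5.5 and 3.76 CPM with DMSO and 25.5, 24.5 and 20.9 CPM with Bobcat339 (4.97-fold). None of these groups overlapped, as the choice of leading genes required. Il11, a cytokine of the IL-6 family, was low and went from 0.624, 0.358 and 0.24 to 1.47, 3.06 and 3.51 CPM. Ereg, the EGFR ligand epiregulin, went from 0.475, 0.552 and 0.479 to 1.59, 2.76 and 3.42 CPM. Serpinb2, an inhibitor of plasminogen activators, went from 0.327, 0.403 and 0.479 to 1.62, 2.66 and 3.45 CPM, and Cemip, which takes part in breaking down hyaluronan, from 0.401, 0.417 and 0.30 to 1.13, 1.54 and 2.54 CPM. In Il11, Ereg, Serpinb2 and Cemip, Bobcat339 replicate 1 was the lowest of its group. The choice of leading genes required it to lie above every DMSO library and the call to hold without it (adjusted p = 2.9e-05, 4.4e-06, 2.4e-05 and 1.1e-04).

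The largest falls were in genes of macrophages and other myeloid cells. Fgr, a Src family kinase of myeloid cells, stood at 5.32, 5.26 and 4.51 CPM with DMSO and 0.619, 0.382 and 0.164 CPM with Bobcat339, or 12.9-fold lower. Vsig4, a complement receptor of Kupffer cells, stood at 4.16, 5.2 and 5.66 CPM with DMSO and 0.206, 0.56 and 0.442 CPM with Bobcat339, or 12.4-fold lower. The complement genes C1qa and C1qc fell 10-fold and 8.96-fold. Fcgr1 and Fcgr4, receptors for IgG, fell 9.82-fold and 7.38-fold. The sialic acid binding receptor Siglec1 fell 9.26-fold, from 9.24, 8.13 and 6.86 to 0.748, 1.06 and 0.809 CPM. Also among the 15 were Tlr1 (8.91-fold), Timd4 (7.85-fold), the gelatinase Mmp9 (7.63-fold), Cd72 (7.29-fold), the inhibitory collagen receptor Lair1 (7.05-fold), Fgd2 (7.26-fold) and the nucleoside transporter Slc28a2 (9.13-fold). Aif1, a calcium-binding protein of macrophages, stood at 2.56, 1.82 and 2.17 CPM with DMSO and 0, 0.102 and 0 CPM with Bobcat339. Since 3 read pairs in a library, at the assumed 4 counts each, come to 0.143 to 0.178 CPM, no fold is given. All 30 leading genes kept their call with each library left out in turn, which the choice of genes required for Bobcat339 replicate 1 alone.

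**Figure D3:**
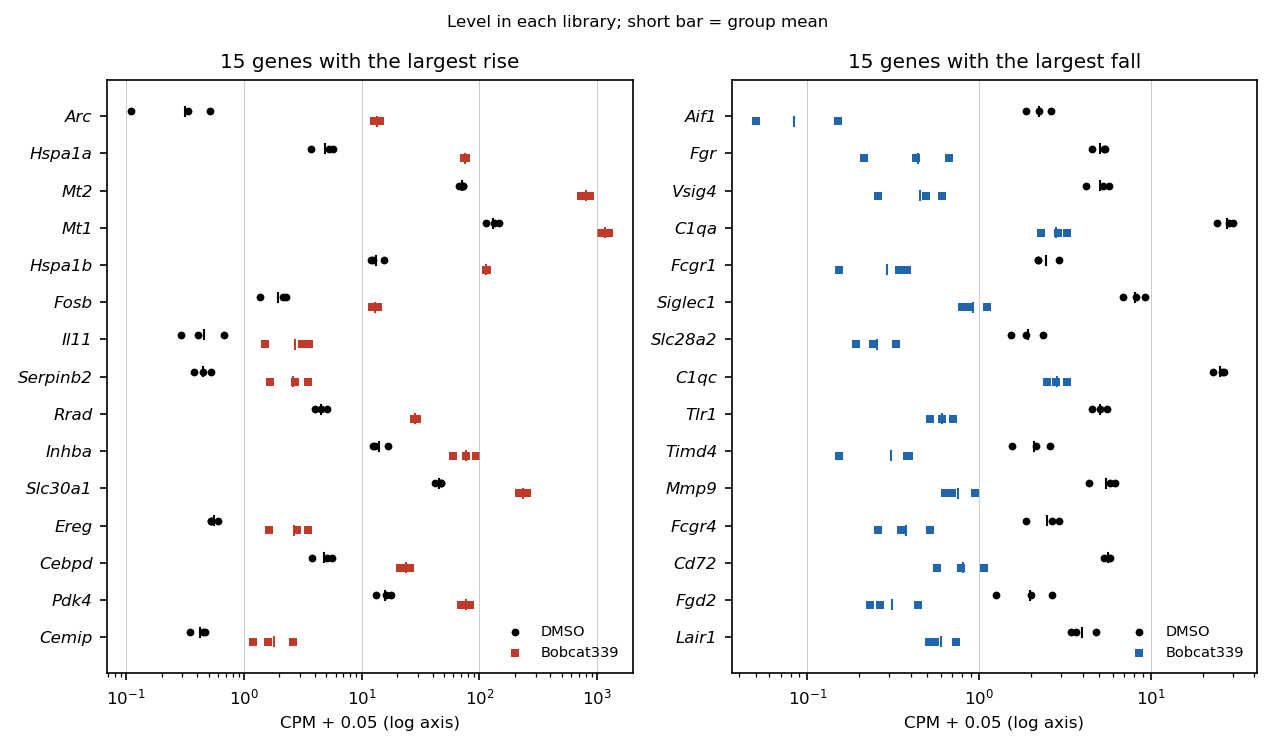
Level in each of the 6 libraries (CPM + 0.05 on a log axis, 1 point per library, short bars at group means) of the 15 leading rises, left, and the 15 leading falls, right. The genes were chosen for groups that do not overlap, so the points form separate groups in all 30, for example 67.2 to 72.3 against 728 to 871 CPM for Mt2.

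The enzymes that Bobcat339 is meant to act on were measured next. Tet3 stood at 64.7, 64.4 and 67.7 CPM with DMSO and 128, 138 and 146 CPM with Bobcat339. This was a 2.09-fold rise with no overlap (log2 fold change 1.07 ± 0.07, adjusted p = 7.6e-06, and adjusted p = 1.2e-05 without Bobcat339 replicate 1). Tet2 stood at 8.84, 7.22 and 8.9 CPM with DMSO and 9.91, 10.4 and 16.1 CPM with Bobcat339, with Bobcat339 replicate 3 highest. It did not pass with all libraries (adjusted p = 0.0719) but did without Bobcat339 replicate 1 (adjusted p = 0.0346). Tet1 was under the floor of 3 read pairs in every library (0, 0 and 0.0599 CPM with DMSO and 0.0516, 0 and 0.101 CPM with Bobcat339) and was not tested. In the list of TET enzymes and cytosine demethylation genes 3 rose, 3 fell and 8 did not pass, of 14 tested (21.4% in each direction, beside 11.6% and 9.06% of all genes). The median log2 fold change was 0.12 (4 higher and 3 lower without Bobcat339 replicate 1). Gadd45g, of a family of stress proteins linked to DNA demethylation, went from 3.64, 3.61 and 3.12 to 5.87, 6.56 and 5.55 CPM (adjusted p = 0.00221). Idh2, the mitochondrial enzyme that makes 2-oxoglutarate, fell from 42.1, 43.8 and 38.4 to 28.5, 27.2 and 26.5 CPM (adjusted p = 6.7e-04). Tdg, the glycosylase that removes oxidised cytosine and a gene chosen after its values were seen, rose from 78.5, 80.6 and 83.1 to 99.5, 110.4 and 107 CPM (adjusted p = 0.00351).

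Genes that write and read DNA methylation were called in both directions. Of 13 tested 4 rose and 1 fell, a share of 30.8% and 7.69% beside 11.6% and 9.06% of all genes, with a median of -0.02. Dnmt3a, a methyltransferase that sets new methylation, rose from 52.7, 53.3 and 61.7 to 93.6, 84.7 and 100.0 CPM (log2 fold change 0.73 ± 0.09, adjusted p = 3.7e-04). The methyl-CpG binding gene Mbd1 rose from 62.3, 66 and 61.6 to 84.7, 83 and 81.5 CPM. Uhrf1, which guides maintenance methylation during DNA replication, fell from 18.1, 17.8 and 15.9 to 9.66, 11.3 and 9.01 CPM (log2 fold change -0.79 ± 0.16, adjusted p = 0.00643). The numbers higher and lower were 2 and 1 without Bobcat339 replicate 2, Bobcat339 replicate 3, DMSO replicate 1 or DMSO replicate 2 and 4 and 2 without DMSO replicate 3, and 2 rose with DESeq2, with RLE scaling and with the 6 libraries alone. Dnmt3a, Mbd1 and Uhrf1 kept their calls with each library left out.

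Of 27 other 2-oxoglutarate dioxygenases 6 rose and 4 fell (22.2% and 14.8%, median 0.18). Egln3 and Egln1, the prolyl hydroxylases that mark the hypoxia factor HIF for breakdown and are themselves induced by it, fell 2.43-fold and 1.45-fold, from 95.4, 101 and 95.4 to 44.4, 39.2 and 36.5 CPM for Egln3. The histone demethylase Kdm6b rose from 35.8, 40.6 and 33.6 to 56.9, 58.7 and 56.2 CPM. Without Bobcat339 replicate 1, 9 of the list were higher and 4 lower. Imprinted genes, whose expression depends on methylation of the parental alleles, were mostly not called: 3 rose and 1 fell of 23 (13% and 4.35%), and 5 and 2 without Bobcat339 replicate 1. With DESeq2 3 fell. Peg10 went from 11.4, 9.11 and 11.2 to 22.6, 26.8 and 31.4 CPM and Peg3 from 3.45, 3.58 and 3.41 to 5.94, 7.22 and 9.05 CPM. The receptor Igf2r, which clears the growth factor IGF2, went from 229, 236 and 227 to 312, 316 and 338 CPM. Germline genes that are silenced by promoter methylation in somatic cells were mostly at 0, and only 5 of 20 were tested. Tex19.1 was the one called, at 0.119, 0 and 0 CPM with DMSO and 2.24, 1.45 and 1.06 CPM with Bobcat339. No fold is given since 2 DMSO libraries had none, and its adjusted p of 0.0196 became 0.0514 without Bobcat339 replicate 2, 0.0685 without DMSO replicate 2 and 0.0519 without DMSO replicate 3.

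Metal-binding and zinc-export genes rose together with the inducible heat shock genes. Promoters are printed here for genes picked from each group, not for every leading gene. Metallothioneins and Slc30a1 share a known input, the zinc-sensing factor MTF1, which binds metal response elements, and Hspa1a and Hspa1b share another, the heat shock factor HSF1. Promoters of a sterol and an ER gene follow the same plan for the groups described after them. Each line gives the 150 bases before the gene's start on its own strand (RefSeq, build GRCm38.p6). Capitals mark matches to the motif named, searched on both strands. The metal response element was searched as TGCACNC or TGCGCNC and the heat shock element as GAANNTTC or TTCNNGAA. The sterol regulatory element was searched as TCACCCCA or TCACNCCAC, and the ER stress element by its standard form, which holds a CCAAT box.
Mt2 (chr8:94172468-94172617, plus strand, metal response element core): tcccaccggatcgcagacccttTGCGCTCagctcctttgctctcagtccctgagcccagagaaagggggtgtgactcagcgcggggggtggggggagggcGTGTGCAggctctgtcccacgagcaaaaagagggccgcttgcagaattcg
Slc30a1 (chr1:191906631-191906780, plus strand, metal response element core): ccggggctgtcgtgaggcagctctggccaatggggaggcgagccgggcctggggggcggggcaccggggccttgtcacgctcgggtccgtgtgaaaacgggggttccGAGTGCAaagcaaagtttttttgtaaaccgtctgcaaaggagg
Hspa1a (chr17:34972157-34972306, minus strand, heat shock element): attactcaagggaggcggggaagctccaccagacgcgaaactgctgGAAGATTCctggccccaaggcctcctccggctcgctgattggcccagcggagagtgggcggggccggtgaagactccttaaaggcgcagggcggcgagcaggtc
Hspa1b (chr17:34959239-34959388, minus strand, heat shock element): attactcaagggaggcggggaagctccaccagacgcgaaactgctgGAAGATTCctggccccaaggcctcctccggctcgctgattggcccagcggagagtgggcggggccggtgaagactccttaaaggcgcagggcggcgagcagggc
Hmgcs1 (chr13:119690201-119690350, plus strand, sterol regulatory element): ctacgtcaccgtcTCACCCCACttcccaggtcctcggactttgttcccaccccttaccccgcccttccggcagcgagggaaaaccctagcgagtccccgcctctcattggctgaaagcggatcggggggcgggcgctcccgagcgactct
Hspa5 (chr2:34771940-34772089, plus strand, ER stress element): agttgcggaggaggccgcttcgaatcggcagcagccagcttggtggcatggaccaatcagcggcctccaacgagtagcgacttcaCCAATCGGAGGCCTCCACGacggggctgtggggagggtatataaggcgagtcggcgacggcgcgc
In windows of this length a match to the metal motif was found in 20.7% of 11457 promoters of tested protein-coding genes, to the heat shock motif in 5.73%, to the sterol motif in 1.00% and to the ER stress motif in 0.113%. The Hspa1a and Hspa1b windows differ at 1 of 150 bases. The genes were chosen for their change and for a match, so these lines show what the promoters hold and are no test.

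Mt2 and Mt1 encode small proteins that bind zinc and copper. Mt2 stood at 72.1, 72.3 and 67.2 CPM with DMSO and 871, 792 and 728 CPM with Bobcat339. Mt1 stood at 133, 145 and 113 CPM with DMSO and 1252, 1147 and 1075 CPM with Bobcat339. The lowest Bobcat339 library lay far above the highest DMSO library in both. The rises were 11.3-fold (log2 fold change 3.50 ± 0.11, adjusted p = 1.8e-07) and 8.87-fold (log2 fold change 3.15 ± 0.10, adjusted p = 1.8e-07), and 10.8-fold and 8.51-fold without Bobcat339 replicate 1. Slc30a1, the exporter of zinc at the cell surface, went from 41.9, 46.8 and 47.5 to 218, 237 and 251 CPM, a 5.18-fold rise. In the list of zinc and copper genes 9 rose, 3 fell and 14 did not pass, of 26 tested. The shares were 34.6% higher and 11.5% lower, beside 11.6% and 9.06% of all genes. The median log2 fold change of 0.04 turned to -0.02 with RLE scaling. Of the rises 8 held in every fit that left out 1 library, and of the falls 0 did. The numbers were 8 and 0 without Bobcat339 replicate 2, Bobcat339 replicate 3, DMSO replicate 1 or DMSO replicate 2. Mtf1 itself, chosen after its values were seen, went from 37.6, 37.3 and 39 to 52.9, 54.3 and 62.5 CPM (adjusted p = 0.00102).

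The inducible HSP70 genes belong to the cytosolic chaperones. Hspa1a stood at 5.22, 5.68 and 3.65 CPM with DMSO and 77, 75.5 and 73.5 CPM with Bobcat339. Hspa1b stood at 12.4, 15.3 and 12 CPM with DMSO and 113, 117 and 114 CPM with Bobcat339. The rises were 15.5-fold and 8.66-fold (adjusted p = 2.2e-07 and 1.8e-07). The transcripts are near-identical copies, so how their reads were split is uncertain. Hspb8, a small heat shock protein that works in autophagy of misfolded proteins, rose 1.91-fold from 289, 289.6 and 247 to 576, 519 and 484 CPM. Of 26 members 5 rose and 3 fell (19.2% and 11.5%, beside 11.6% and 9.06% of all genes), with a median of 0.13. With a library left out they were 8 and 3 without Bobcat339 replicate 1, 5 and 0 without Bobcat339 replicate 2 or DMSO replicate 2, 5 and 1 without Bobcat339 replicate 3 or DMSO replicate 1 and 10 and 3 without DMSO replicate 3.

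Chaperones of the endoplasmic reticulum (ER) and genes of the ATF4 axis, 2 arms of the response to unfolded protein and to amino acid shortage, rose in number. Of 22 ER genes 12 rose and 0 fell (54.5% higher, beside 11.6% of all genes), with a median log2 fold change of 0.38, and 11 of the rises held with each library left out. Herpud1, which takes part in clearing proteins from the ER, stood at 104, 114 and 93.9 CPM with DMSO and 337, 314 and 292 CPM with Bobcat339 (3.02-fold). The ER stress sensor Atf6 stood at 132, 127 and 154 CPM with DMSO and 322, 323 and 372 CPM with Bobcat339. The co-chaperone Dnajb9 stood at 103, 106 and 129 CPM with DMSO and 243, 301 and 315 CPM with Bobcat339. Hspa5, the main ER chaperone BiP, was chosen after its values were seen and stood at 1609, 1607 and 2174 CPM with DMSO and 3141, 3285 and 3647 CPM with Bobcat339 (adjusted p = 4.1e-04). Its 3 Bobcat339 libraries all lay above the highest DMSO library, as did those of Herpud1, Atf6 and Dnajb9.

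In the ATF4 and transfer RNA synthetase list 14 of 32 rose and 0 fell (43.8% higher, beside 11.6% of all genes, median 0.34). Without Bobcat339 replicate 1 15 rose and 1 fell, as did 1 without DMSO replicate 3. DESeq2 called 2 lower. Chac1, which breaks down glutathione, stood at 20.3, 17.4 and 16.3 CPM with DMSO and 71, 62.2 and 60.6 CPM with Bobcat339. It rose 3.58-fold (log2 fold change 1.84 ± 0.10, adjusted p = 2.9e-06). Ppp1r15a, which restarts translation by dephosphorylating eIF2 alpha, rose 1.97-fold from 58.6, 56.9 and 52.9 to 118, 110.3 and 103 CPM. The transporter of basic amino acids Slc7a1 rose 1.76-fold. Chosen after their values were seen, Ddit3 (the stress factor CHOP) went from 43.7, 41 and 44.2 to 87.6, 93.6 and 85.6 CPM and Atf4 itself from 258, 261 and 244 to 423, 399.9 and 364 CPM. In each member named here the 3 Bobcat339 libraries lay above the 3 DMSO libraries.

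**Figure D4:**
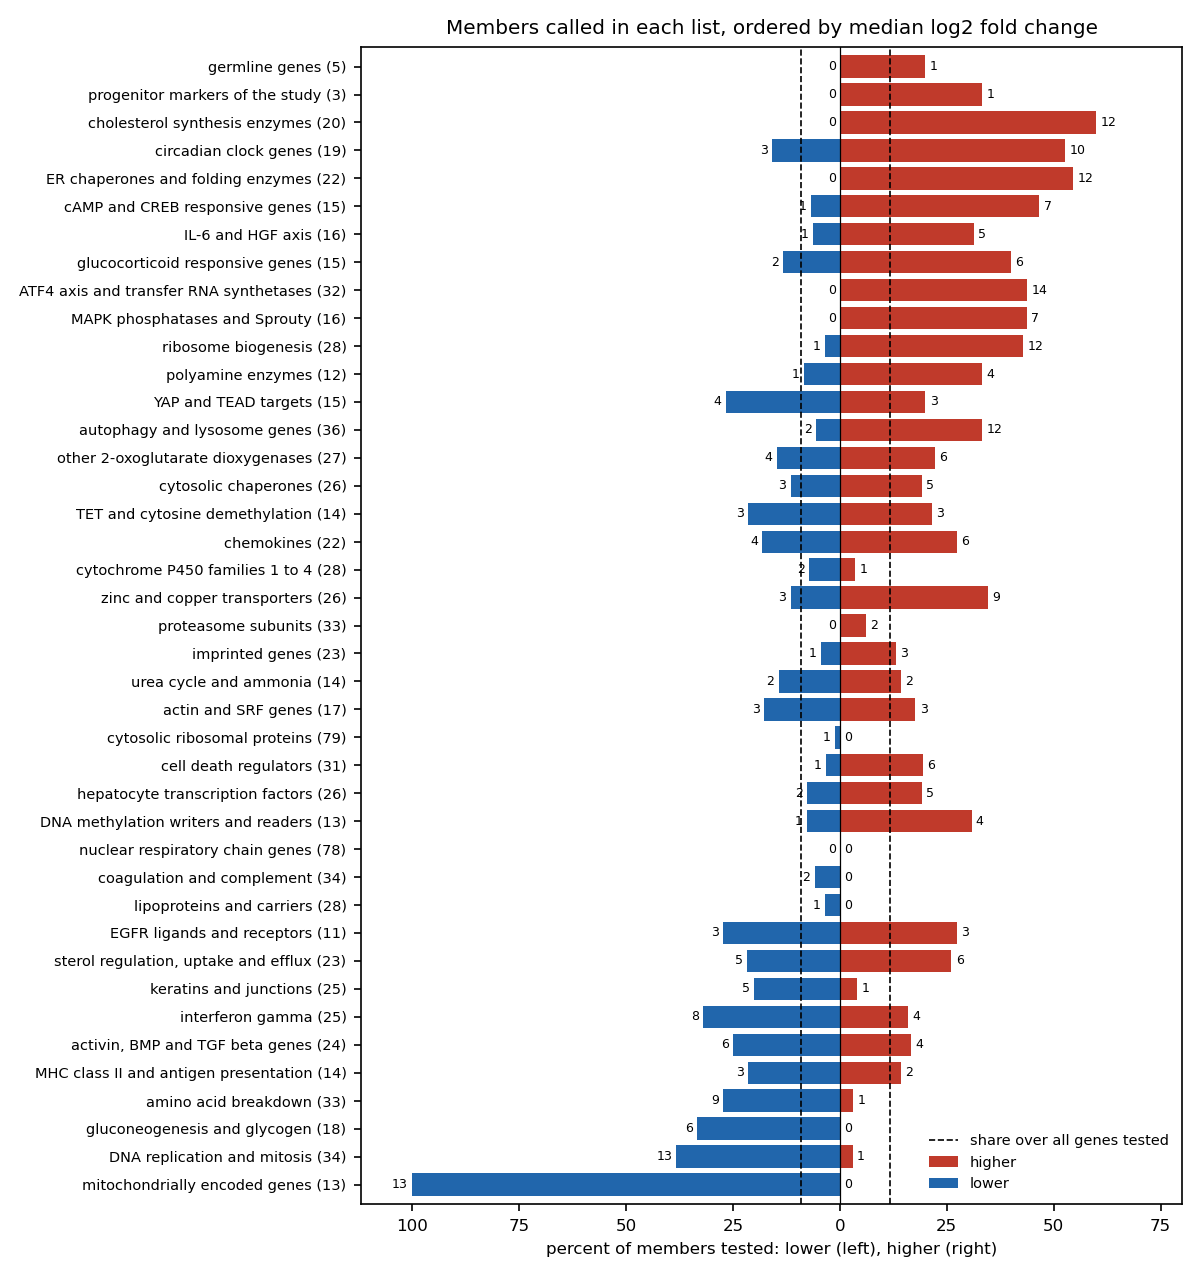
Percent of tested members called higher (red, to the right) and lower (blue, to the left) in each gene list, with all libraries in the fit, the number called beside each bar, the number tested in brackets and dashed lines at the shares over all genes tested (11.6% and 9.06%). Cholesterol synthesis (12 of 20), ER chaperones (12 of 22) and the ATF4 axis (14 of 32) have calls in the higher direction alone, and mitochondrially encoded genes (13 of 13) in the lower direction alone.

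Of 20 enzymes of cholesterol synthesis 12 rose and 0 fell (60% higher, beside 11.6% of all genes), with a median log2 fold change of 0.50, 0.50 without Bobcat339 replicate 1, and 11 rises held with each library left out. Sqle, the epoxidase of squalene, went from 113, 114 and 114 to 219, 227 and 221 CPM (1.95-fold). Msmo1, a later demethylation step, went from 129.7, 135 and 150.3 to 264, 283 and 289.5 CPM (2.01-fold). The groups did not overlap in either gene. Hmgcs1, the synthase at the start of the pathway whose promoter is printed above, was chosen after its values were seen and stood at 98.6, 92.7 and 132 CPM with DMSO and 179, 203 and 233 CPM with Bobcat339. Insig1, a brake on the processing of SREBP that is itself induced by it, rose 3.51-fold, from 66.3, 69 and 68.2 to 231, 243 and 239 CPM. Lrp1, a large receptor for lipoprotein remnants, fell 1.87-fold (309, 329 and 278 CPM with DMSO and 173, 158 and 159 CPM with Bobcat339). Also lower, and chosen after its values were seen, was Abcg1, an exporter of cholesterol (6.75, 7.14 and 5.65 CPM with DMSO and 1.66, 3.41 and 2.38 CPM with Bobcat339, adjusted p = 9.8e-04). So was Nr1h3, the oxysterol receptor LXR alpha that induces it, chosen in the same way (47.8, 47.4 and 40.2 CPM with DMSO and 28.2, 26.7 and 25.4 CPM with Bobcat339, adjusted p = 3.4e-04). In the list of sterol regulation, uptake and efflux 6 rose and 5 fell of 23, with the same counts without Bobcat339 replicate 1. The shares were 26.1% and 21.7%, beside 11.6% and 9.06% of all genes. Abcg1 and Nr1h3 are also expressed by macrophages, whose markers fell in the same libraries, and the part of that in their change was not tested.

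Lysosome and autophagy genes rose more often than they fell, 12 and 2 of 36 (33.3% and 5.56%, median 0.19). Gla, the lysosomal alpha-galactosidase, went from 47.4, 47 and 48.7 to 112, 113 and 103 CPM (2.29-fold). Rragd, a GTPase of the nutrient-sensing Rag complex, went from 13.1, 13 and 14.6 to 24, 27.4 and 24.3 CPM (1.86-fold), and the proton pump subunit Atp6v1h rose 1.72-fold. Without DMSO replicate 3 and with DESeq2 the list had 4 falls. In the polyamine list 4 rose and 1 fell of 12 (33.3% and 8.33%, beside 11.6% and 9.06% of all genes). The numbers were 2 and 1 without Bobcat339 replicate 2, DMSO replicate 1 or DMSO replicate 2. Sat1, which acetylates spermidine and spermine for export, stood at 209.8, 201 and 204 CPM with DMSO and 515, 528 and 489.6 CPM with Bobcat339 (2.49-fold, adjusted p = 2.9e-06). The oxidase Paox of the same route fell from 9.44, 10.7 and 8.82 to 4.89, 4.71 and 4.37 CPM. Amd1, which makes the aminopropyl donor for polyamine synthesis, rose from 139.6, 151 and 168 to 203, 226 and 248 CPM.

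The study's interest in interleukin 6 (IL-6), STAT3 and regeneration gives a further set. In its hepatocytes the paper saw no considerable change of Stat3 or phosphorylated Stat3 with Bobcat339, whereas the values here are RNA. Stat3, which carries the IL-6 signal to the nucleus, went from 203, 212 and 187 to 358, 352 and 353 CPM (1.76-fold). The receptor Il6ra went from 18.2, 16.4 and 20.1 to 58.3, 52.6 and 62.8 CPM (3.17-fold), and its partner Il6st from 226, 228 and 239 to 371, 392 and 429 CPM (1.72-fold). The groups did not overlap in any of the 3, and all kept their calls without Bobcat339 replicate 1 (adjusted p = 1.0e-04, 3.0e-05 and 6.2e-05). The cytokine Il6 was close to the floor in every library (0.134, 0 and 0 CPM with DMSO and 0.206, 0.267 and 0.455 CPM with Bobcat339), so no fold is given. Its adjusted p was 0.0536, and 0.0451 without Bobcat339 replicate 1. Socs3, the STAT3-induced feedback inhibitor, was chosen after its values were seen and stood at 5.45, 6.23 and 5.5 CPM with DMSO and 11.2, 10.3 and 8.86 CPM with Bobcat339 (adjusted p = 0.00116). Of 16 members 5 rose and 1 fell (31.2% and 6.25%, median 0.36), and 7 and 1 without Bobcat339 replicate 1. The single fall was absent without Bobcat339 replicate 2, DMSO replicate 1 or DMSO replicate 2.

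The study followed 3 progenitor markers in whole liver after partial hepatectomy, not in cultured hepatocytes. Of these, Sox9, a transcription factor of bile duct and progenitor cells, stood at 24.3, 28.8 and 25.3 CPM with DMSO and 64.8, 52.1 and 60.7 CPM with Bobcat339. It rose 2.26-fold (log2 fold change 1.18 ± 0.17, adjusted p = 9.1e-04), and 2.16-fold without Bobcat339 replicate 1 (adjusted p = 0.00268). Tert, the telomerase subunit, stood at 6.45, 6.52 and 7.1 CPM with DMSO and 5.68, 4.6 and 5.51 CPM with Bobcat339 (adjusted p = 0.688). Lgr5, a stem cell marker, was near the floor in every library (0, 0 and 0.135 CPM with DMSO and 0.168, 0.0637 and 0.316 CPM with Bobcat339). The bile duct markers Krt19 and Epcam, which gut epithelium also makes, were chosen after their values were seen. Krt19 stood at 20.3, 18.4 and 20.3 CPM with DMSO and 16.1, 2.1 and 1.87 CPM with Bobcat339. Epcam stood at 19.1, 16.9 and 20 CPM with DMSO and 14.7, 1.96 and 1.83 CPM with Bobcat339. Both had their highest treated value in Bobcat339 replicate 1, like the intestinal list.

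In the interferon gamma list the counts were 4 higher and 8 lower of 25 (16% and 32%), with a median of -0.12, and 5 fell with the 6 libraries alone. The study measured Irf1, Ifit1 and Cxcl10 in macrophages stimulated with interferon gamma, not in hepatocytes. Irf1, an interferon-induced transcription factor, stood at 33.7, 37.4 and 32.8 CPM with DMSO and 31.9, 26.7 and 26.1 CPM with Bobcat339 (adjusted p = 0.107, and 0.0415 without Bobcat339 replicate 1). Ifit1, an interferon-induced antiviral gene, stood at 4.18, 3.98 and 6.1 CPM with DMSO and 3.15, 2.46 and 2.78 CPM with Bobcat339. Ifit1 passed with all libraries (adjusted p = 0.0482) and lost its call without Bobcat339 replicate 2 (0.159), Bobcat339 replicate 3 (0.11), DMSO replicate 1 (0.0826) or DMSO replicate 2 (0.0648). Cxcl10, an interferon-induced chemokine, went from 11, 8.39 and 11.2 to 31.4, 31.3 and 29.8 CPM (3.02-fold higher). Ifit2, a relative of Ifit1, went from 2.26, 1.88 and 1.93 to 0.722, 0.688 and 0.821 CPM (2.72-fold lower), and the receptor Ifngr1 fell from 73.6, 72.5 and 80.5 to 56.9, 55.4 and 60.4 CPM. Only 1 rise and 3 falls of the list held with each library left out. The numbers higher and lower became 2 and 3 without Bobcat339 replicate 2, 1 and 4 without Bobcat339 replicate 3, 1 and 3 without DMSO replicate 1 and 3 and 3 without DMSO replicate 2.

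Chemokines went both ways. The neutrophil attractant Cxcl2 stood at 5.39, 6.49 and 5.42 CPM with DMSO and 18.4, 17.5 and 15.1 CPM with Bobcat339 (2.95-fold higher). Cxcl1, of the same kind and chosen after its values were seen, stood at 38.3, 37.6 and 39.4 CPM with DMSO and 71.6, 69.2 and 64.9 CPM with Bobcat339. Ccl6, a chemokine of macrophages and other myeloid cells, fell 6.13-fold (7.46, 7.41 and 5.33 CPM with DMSO and 1.22, 0.993 and 1.07 CPM with Bobcat339). Of 22 chemokines 6 rose and 4 fell (27.3% and 18.2%, beside 11.6% and 9.06% of all genes), and 5 and 6 without Bobcat339 replicate 1. The macrophage marker sum was lower in the same 3 libraries (352 to 388 against 769.5 to 824 CPM), and its part in the falls was not tested.

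Feedback genes of the growth factor and cyclic AMP pathways had more rises than falls among those called. Of 16 MAPK phosphatases and Sprouty genes 7 rose and 0 fell (43.8% higher, median 0.31), and 5 rose without Bobcat339 replicate 1. Dusp1, a phosphatase that switches MAPKs off, stood at 112, 112 and 95.2 CPM with DMSO and 204, 223 and 202 CPM with Bobcat339 (1.97-fold), before Dusp14 (2.51-fold) and Dusp8 (1.61-fold). Of 11 EGFR ligands and receptors 3 rose and 3 fell (27.3% in each direction, beside 11.6% and 9.06% of all genes). The inhibitor Lrig1 went from 92.3, 91.5 and 84.8 to 186, 185 and 182 CPM (2.06-fold), and Egfr from 167, 171 and 164 to 233, 228 and 243 CPM. Erbb3, chosen after its values were seen, fell from 100.2, 110.5 and 98.5 to 52.5, 55.5 and 52.9 CPM (adjusted p = 0.0011). In the cyclic AMP and CREB list 7 rose and 1 fell of 15 (46.7% higher, median 0.37), with the phosphodiesterase Pde4b going from 15.8, 14.4 and 17.2 to 25.1, 29.8 and 28.2 CPM. Ppargc1a, the coactivator of gluconeogenesis and mitochondrial genes, was chosen after its values were seen and went from 2.64, 2.61 and 3.91 to 9.59, 11.8 and 15.4 CPM (adjusted p = 8.3e-04). The single fall in that list was absent without DMSO replicate 1, and 2 members fell without DMSO replicate 3.

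Of 24 activin, BMP and TGF beta genes 4 rose and 6 fell (16.7% and 25%, beside 11.6% and 9.06% of all genes), and 6 and 5 without Bobcat339 replicate 1. With the 6 libraries alone 2 rose. Tgfb1, the ligand TGF beta 1, fell 1.69-fold, from 16.6, 17.6 and 16 to 8.92, 10.2 and 10.5 CPM. Hamp, the iron hormone hepcidin and a BMP target, was chosen after its values were seen and stood at 1.23, 1.79 and 1.66 CPM with DMSO and 0.374, 0.458 and 0.455 CPM with Bobcat339 (adjusted p = 0.00166). Without Bobcat339 replicate 2 the list had 2 rises. YAP and TEAD targets were likewise mixed (3 higher and 4 lower of 15, or 20% and 26.7%, and 5 higher without Bobcat339 replicate 1). Ccn2, a standard reporter of YAP, fell from 47.8, 49.6 and 45.4 to 32.4, 29.4 and 31.1 CPM. The phosphatase Ptpn14 rose from 112, 112 and 103 to 174, 183 and 169 CPM, and Wwtr1, the YAP relative TAZ, rose from 57.7, 59.2 and 53.8 to 77.7, 80.3 and 86.5 CPM.

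Keratin and junction genes were called lower more often than higher. Cdh1, the E-cadherin of epithelial junctions, fell 2.06-fold from 285, 296 and 278 to 149.7, 137 and 131 CPM (log2 fold change -1.04 ± 0.09, adjusted p = 4.0e-05). Gjb2, a gap junction gene, fell from 61, 64.8 and 60.3 to 40.8, 41.8 and 43.3 CPM, and the desmosome gene Pkp2 rose from 93.2, 93.9 and 102 to 134, 136 and 136 CPM. The keratin and junction list had 1 higher and 5 lower of 25 (4% and 20%, beside 11.6% and 9.06% of all genes), 8 lower with DESeq2 and 9 with the 6 libraries alone less Bobcat339 replicate 1. With a library left out this became 2 and 8 without Bobcat339 replicate 1 and 1 and 3 without Bobcat339 replicate 2, Bobcat339 replicate 3, DMSO replicate 1 or DMSO replicate 2. In the actin and SRF list 3 rose and 3 fell of 17 (17.6% in each direction), of which 0 and 1 held with each library left out. The one that held was Flna, the actin crosslinker filamin A, at 595, 612 and 517 CPM with DMSO and 421, 418 and 409 CPM with Bobcat339. Rises and falls of that list numbered 0 and 3 without Bobcat339 replicate 1, 0 and 1 without Bobcat339 replicate 2 or DMSO replicate 1, 1 and 1 without Bobcat339 replicate 3, 2 and 1 without DMSO replicate 2 and 1 and 4 without DMSO replicate 3, and 1 rose with DESeq2, with RLE scaling and with the 6 libraries alone.

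Clock genes changed in both arms of the loop. Cry1, a repressor of the loop, went from 22.8, 23.8 and 23.1 to 45.7, 46.1 and 44.8 CPM (1.96-fold). Per1, another repressor and also a cyclic AMP target, went from 28.7, 29.2 and 22.9 to 62.9, 59.2 and 57.4 CPM (2.22-fold), and Nfil3, a repressor of clock output, from 59.9, 58.8 and 52.6 to 122, 111 and 96.9 CPM (1.93-fold). The next 3 were chosen after their values were seen. The activator Arntl (BMAL1) went from 8.53, 9.47 and 8.57 to 17.3, 22.2 and 22.7 CPM (adjusted p = 1.1e-04). Its target Dbp went from 2.9, 2.97 and 2.64 to 1.38, 1.52 and 1.39 CPM (adjusted p = 0.00286), and Per3 from 7.24, 6.71 and 6.41 to 2.69, 2.41 and 2.83 CPM (adjusted p = 2.0e-04). Of 19 clock genes 10 rose and 3 fell, a share of 52.6% and 15.8%, with a median of 0.44. In every fit that left out 1 library 5 and 2 held, and the numbers were 6 and 2 without Bobcat339 replicate 2, Bobcat339 replicate 3 or DMSO replicate 1. DESeq2 called 5 lower. Among glucocorticoid-responsive genes 6 rose and 2 fell of 15 (40% and 13.3%). Zfp36, which destabilises cytokine messages, went from 27.8, 29.3 and 23.4 to 65.3, 60.6 and 56.6 CPM (2.27-fold), followed by Klf9 (1.91-fold) and the kinase Sgk1 (1.57-fold). The falls were in Errfi1 (222, 239.9 and 239 CPM with DMSO and 154, 168 and 161 CPM with Bobcat339) and Fkbp5 (45.4, 45.6 and 51.1 CPM with DMSO and 33.3, 33 and 33.1 CPM with Bobcat339), both chosen after their values were seen.

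Hepatocyte markers were called in few members, and hepatocyte transcription factors in both directions. Hnf4a, the nuclear receptor that keeps many liver genes on, fell 1.9-fold from 152, 154 and 149.9 to 81.8, 82.7 and 75.9 CPM (log2 fold change -0.92 ± 0.14, adjusted p = 0.00124). All 3 Bobcat339 libraries lay far below the DMSO range, and without Bobcat339 replicate 1 the adjusted p was 0.00302. Cebpb, which shares targets with Cebpd, rose from 80.8, 90.8 and 64.3 to 151, 139.6 and 123 CPM. The transcription factor list had 5 higher and 2 lower of 26 (19.2% and 7.69%, beside 11.6% and 9.06% of all genes, median -0.02). It had 1 lower without Bobcat339 replicate 2, DMSO replicate 1 or DMSO replicate 2. The number lower was 4 with DESeq2 and 6 with the 6 libraries alone (7 without Bobcat339 replicate 1). Of 12 hepatocyte markers edgeR called Hnf4a alone, with 2 lower without DMSO replicate 3 and with RLE scaling, and DESeq2 called 4 lower. The log2 fold change of Alb was -0.13 ± 0.07 (adjusted p = 0.241). Alb held 2.43, 2.43 and 2.45% of counts with DMSO and 1.96, 2.29 and 2.26% with Bobcat339 (exact permutation test, two-sided p = 0.1, the smallest that 3 against 3 allows).

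Liver metabolic genes had more falls than rises in 2 of the 3 lists below. In gluconeogenesis and glycogen 6 of 18 fell and 0 rose (33.3% lower, median -0.39), and 3 held with each library left out. The numbers higher and lower were 0 and 3 without Bobcat339 replicate 2, Bobcat339 replicate 3, DMSO replicate 1 or DMSO replicate 2 and 1 and 5 without DMSO replicate 3. Pck1, the rate-setting enzyme of gluconeogenesis, stood at 4.34, 3.97 and 3.8 CPM with DMSO and 0.928, 0.433 and 0.354 CPM with Bobcat339 and fell 7.05-fold (adjusted p = 5.5e-04). The liver glycogen phosphorylase Pygl fell from 175, 175 and 180.4 to 126, 126 and 119 CPM and its kinase subunit Phka2 from 24.9, 24.3 and 23.9 to 16.1, 14.5 and 15.6 CPM. Amino acid breakdown had 1 higher and 9 lower of 33 (3.03% and 27.3%, median -0.36), with 4 falls held in every fit. Leaving out a library gave 1 and 4 without Bobcat339 replicate 2, Bobcat339 replicate 3 or DMSO replicate 2 and 1 and 5 without DMSO replicate 1. DESeq2 and the 6 libraries alone less Bobcat339 replicate 1 each gave 1 and 15. Cbs, which commits homocysteine to cysteine, fell 2.05-fold, from 63.4, 62.4 and 52.6 to 32.2, 29.9 and 25.1 CPM, and Aass and Aldh4a1, of lysine and proline breakdown, fell 1.97-fold and 1.63-fold. In the urea cycle Nags, which makes its activator, rose 1.92-fold, from 37.3, 39.5 and 29.1 to 75.7, 66.7 and 61.3 CPM. Arg1, which releases urea, fell from 10.6, 12.3 and 12.8 to 6.46, 8.33 and 7.29 CPM. The list had 2 higher and 2 lower of 14 (14.3% in each direction), and 1 or 2 of each with any library left out. With DESeq2 and with the 6 libraries alone 1 rose and 4 fell.

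Secreted and structural programmes of the hepatocyte were called in few members. Of 34 coagulation and complement genes 0 rose and 2 fell, of 28 lipoprotein and carrier genes 0 and 1, and of 28 cytochromes P450 1 and 2. The falls were 5.88%, 3.57% and 7.14% of these lists, beside 9.06% of all genes. No call in the first and the last of these lists held with each library left out. With DESeq2 the falls numbered 5, 4 and 4. The one in the lipoprotein list held with each library left out, and was Pltp, a phospholipid transfer protein that macrophages make too (5.75, 8.23 and 5.53 CPM with DMSO and 2.85, 2.56 and 2.59 CPM with Bobcat339). Of 79 ribosomal protein genes only Rpl3 fell (1.27%, beside 9.06% of all genes), from 892, 884 and 805 to 727, 652 and 601 CPM, and 3 fell without Bobcat339 replicate 1. Of 33 proteasome genes 2 rose (6.06%, beside 11.6% of all genes), with 0 held in every fit and 5 without DMSO replicate 3. With RLE scaling and with the 6 libraries alone 0 rose. Ribosome biogenesis, in contrast, had 12 higher and 1 lower of 28 (42.9% and 3.57%, median 0.25), and 8 of the rises held throughout. The nucleolar gene Nop56 went from 227, 231 and 234 to 352, 323 and 319 CPM, Nolc1 from 90.9, 101 and 94.6 to 135, 131 and 136 CPM and Rrp12 from 58.9, 56.7 and 49.6 to 88.6, 80.7 and 82.3 CPM. The single fall was absent without Bobcat339 replicate 2, DMSO replicate 1 or DMSO replicate 2, and 2 genes fell without Bobcat339 replicate 1 or DMSO replicate 3.

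Transcripts of the mitochondrial genome were lower. They held 4.47, 4.43 and 5.59% of counts with DMSO and 2.36, 2.66 and 3.12% with Bobcat339 (exact permutation test of the difference in means, two-sided p = 0.1, the smallest that 3 against 3 allows). All 13 mitochondrially encoded genes fell (100%, beside 9.06% of all genes), with a median log2 fold change of -0.71. The number was 11 without Bobcat339 replicate 1, and 9 genes fell in every fit that left out 1 library. The mt-Co3 gene, a subunit of cytochrome oxidase, went from 1549.7, 1494 and 1908 to 678, 730.4 and 793 CPM (2.25-fold lower). Its partner mt-Co1 went from 25209, 25424 and 30195 to 11655, 14219 and 15028 CPM (1.98-fold lower), and mt-Co2 fell 1.87-fold. Without Bobcat339 replicate 1, mt-Cytb and mt-Nd1, both chosen after their values were seen, had adjusted p = 0.0641 and 0.0863. Nuclear genes of the same respiratory complexes were not called. Of 78, 0 were called in either direction by edgeR, beside 20.7% of all genes. At an unadjusted p under 0.05, 1 was higher and 1 lower, and DESeq2 called 0 higher and 2 lower. Their median was -0.05, and 1 was lower without Bobcat339 replicate 1. The 13 genes are read from 1 small genome and are not independent of each other.

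In the DNA replication list 13 of 34 fell and 1 rose (38.2% and 2.94%, median -0.44). Mcm6 and Mcm5, subunits of the replicative helicase, went from 233, 235 and 231 to 144, 169.9 and 160.4 CPM and from 52.2, 56.6 and 44.4 to 32.5, 31.6 and 27.9 CPM. The riser was Cdkn1a, the cyclin-dependent kinase inhibitor p21, at 311, 319.9 and 286 CPM with DMSO and 529, 459 and 420.4 CPM with Bobcat339 (1.54-fold). The proliferation marker Mki67 stood at 3.42, 2.77 and 2.95 CPM with DMSO and 1.56, 1.81 and 2.97 CPM with Bobcat339 and did not pass (log2 fold change -0.53, adjusted p = 0.254). Without DMSO replicate 1 there were 7 falls and without DMSO replicate 2 there were 8, and 7 held in every fit. In the cell death list 6 rose and 1 fell of 31 (19.4% and 3.23%, beside 11.6% and 9.06% of all genes). The numbers were 6 and 5 without Bobcat339 replicate 1, 5 and 3 without Bobcat339 replicate 3 and 7 and 3 without DMSO replicate 3. DESeq2 called 7 lower. The anti-apoptotic Mcl1 rose from 250.2, 252 and 262 to 338, 372 and 354 CPM, and Ripk1, a kinase of cell death signalling, from 69.9, 69.1 and 86.7 to 115, 132 and 139 CPM.

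Markers of the macrophage were lower as a list. Of 16 Kupffer cell and macrophage markers 15 fell and 0 rose (93.8% lower, beside 9.06% of all genes), with a median log2 fold change of -2.30. The count was the same with each of the 6 libraries left out, with the 6 libraries alone and with DESeq2. C1qa, C1qb and C1qc, which together make the complement protein C1q, stood at 30, 28.4 and 24.1, at 25.2, 22.3 and 19.7 and at 26.4, 25.8 and 22.9 CPM with DMSO. With Bobcat339 they stood at 3.18, 2.23 and 2.83, at 2.84, 3.27 and 3.64 and at 2.44, 3.18 and 2.75 CPM, and no library of one group came near the other. Adgre1 (F4/80) and Lyz2, both chosen after their values were seen, went from 58.9, 56.5 and 59.4 to 8.3, 12.9 and 11.9 CPM and from 165, 164 and 160.1 to 38, 48.8 and 47.2 CPM. The marker that did not pass, chosen after its values were seen, was the lysosomal protein Cd68, at 257, 263 and 221 CPM with DMSO and 236, 227 and 197 CPM with Bobcat339. In bulk RNA, fewer macrophages and less of this RNA per macrophage cannot be told apart.

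Other non-parenchymal lists held few or low markers. Of 12 sinusoidal endothelium markers 4 fell (33.3%, beside 9.06% of all genes) and 2 of these held with each library left out (2 fell without Bobcat339 replicate 1, Bobcat339 replicate 2, DMSO replicate 1 or DMSO replicate 2, and with the 6 libraries alone). They were Kdr, a VEGF receptor (18.5, 16.3 and 16.9 CPM with DMSO and 8.28, 10.3 and 10.2 CPM with Bobcat339), and Stab2, a scavenger receptor (14.5, 14 and 14 CPM with DMSO and 9.86, 10.4 and 11.3 CPM with Bobcat339). Stellate cell and fibroblast markers had 1 higher and 2 lower of 13 (7.69% and 15.4%, beside 11.6% and 9.06% of all genes). None of these calls held throughout, and 5 were lower with DESeq2. The markers summed to 59.0 to 61.3 CPM with DMSO and 52.7 to 54.1 CPM with Bobcat339. Neutrophil and eosinophil markers summed to 5.87 to 7.13 CPM with DMSO and to 4.16, 0.382 and 0.417 CPM with Bobcat339. Of 5 tested 2 fell (40%, beside 9.06% of all genes). Their median was -1.74, or -1.58 with 1 member at 0 in a group held at the floor. Without Bobcat339 replicate 1, 4 fell, so the calls of this list too turned on that library. Lymphocyte markers summed to 7.01 to 9.62 CPM with DMSO and to 2.32, 4.15 and 5.27 CPM with Bobcat339. Of 5 tested 2 fell (40%, and 1 gene without Bobcat339 replicate 1) with a median of -1.19. That median was 0 with 2 members at or under the floor left out and 1 member at 0 in a group held at the floor. Ptprc, the CD45 of all leukocytes, stood at 8.5, 6.87 and 9.11 CPM with DMSO and 2.13, 3.79 and 4.78 CPM with Bobcat339. Csf3r, the neutrophil growth factor receptor, stood at 1.38, 1.57 and 1.38 CPM with DMSO and 0, 0.28 and 0 CPM with Bobcat339. Ccr3, an eosinophil chemokine receptor, and Cd4 were at 0.416, 0.417 and 0.359 and at 0.312, 0 and 0.12 CPM with DMSO and at 0 in all 3 Bobcat339 libraries, so no fold is given. H2-DMb1, an MHC class II loading gene of antigen-presenting cells, went from 1.43, 0.671 and 0.809 to 0.296, 0.216 and 0.101 CPM. The class I gene H2-Q4, of a family of close copies, went from 78.9, 76.4 and 78.7 to 112, 108 and 101 CPM. Of 3 erythroid genes tested 0 were called by edgeR, with 0 at an unadjusted p under 0.05 and 0 by DESeq2.

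The genes that set Bobcat339 replicate 1 apart changed most between the fits. Muc2, the main mucin of goblet cells, stood at 69.5, 61.5 and 72.5 CPM with DMSO and 57.8, 6.7 and 4.13 CPM with Bobcat339. The first Bobcat339 value lies close to the DMSO range and the others far below it, and the adjusted p was 0.356 with all libraries and 0.0269 without Bobcat339 replicate 1 (log2 fold change -3.65). Dmbt1, a mucosal scavenger protein, stood at 125, 108 and 115 CPM with DMSO and 98.6, 6.35 and 7.07 CPM with Bobcat339. Muc13, a mucin of the cell surface, stood at 37.4, 30.6 and 36.9 CPM with DMSO and 31.3, 2.93 and 2.35 CPM with Bobcat339. Car1, the carbonic anhydrase of the colon, stood at 38.4, 31.5 and 36 CPM with DMSO and 27.5, 2.04 and 3.16 CPM with Bobcat339. In each, replicate 1 was the high library of the Bobcat339 group. The same shape was seen in Zg16 (27.4, 24.4 and 28.8 CPM with DMSO and 23.5, 2.39 and 1.58 CPM with Bobcat339) and Lypd8 (118, 93.6 and 116 CPM with DMSO and 95.3, 9.85 and 6.66 CPM with Bobcat339), proteins of the mucus layer, and in Muc3, Ms4a8a, Clca4a and Clca4b. Of the 66 genes 0 were called with all libraries and 63 were lower without Bobcat339 replicate 1. In the intestinal list 1 of 29 fell with all libraries (3.45%, beside 9.06% of all genes) and 21 without that library, with a median log2 fold change of -1.54 and -3.47. The single call with all libraries was Cdh17, a cadherin of gut epithelium (43.2, 41.9 and 49.2 CPM with DMSO and 29, 22.6 and 21.6 CPM with Bobcat339; adjusted p = 0.0217). It was not called without Bobcat339 replicate 2 (0.0872), Bobcat339 replicate 3 (0.0688), DMSO replicate 1 (0.0625), DMSO replicate 2 (0.0526) or DMSO replicate 3 (0.0603). The falls in these genes thus rest on 2 Bobcat339 libraries, and their cause was not tested.

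**Figure D5:**
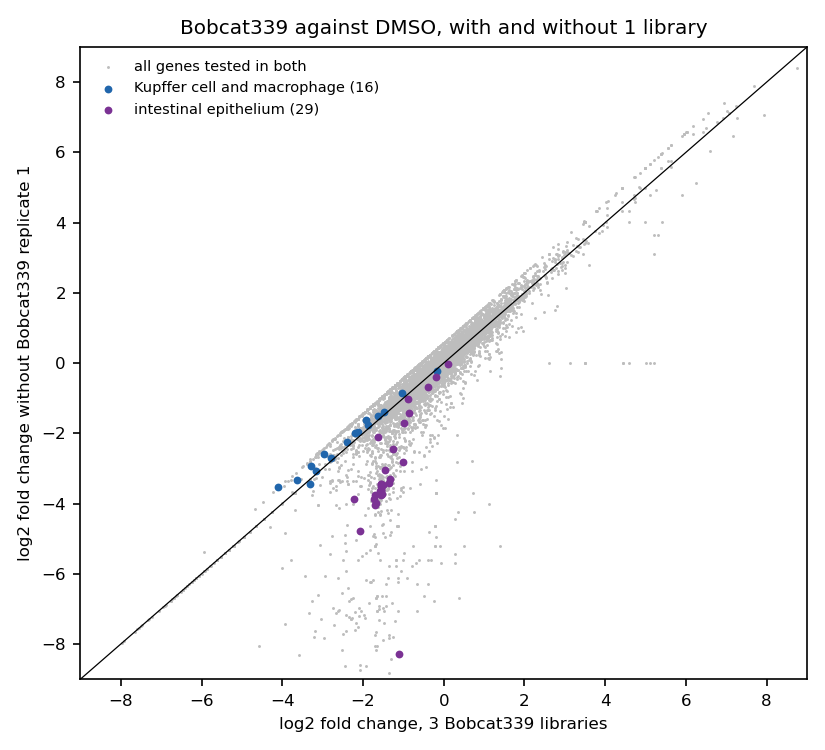
Log2 fold change of Bobcat339 over DMSO with all libraries (horizontal axis) against that without Bobcat339 replicate 1 (vertical axis) for 18350 genes tested in both, 8 of them beyond 9 on an axis and not drawn, with the line of equal values. The 16 macrophage markers (blue) lie near the line, and most of the 29 intestinal genes (purple) lie below it.

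Other genes had calls that turned on Bobcat339 replicate 1. There were 246 higher and 240 lower genes called only with it. The largest changes among them were in the collagen gene Col15a1, which went from 10, 10.4 and 9.32 to 3.39, 3.49 and 2.87 CPM (adjusted p = 0.0385 with and 0.0554 without the library). Others, with the same pair of adjusted p-values, included Upp2 (0.0493 and 0.0713), Azin2 (0.0312 and 0.0536), Ifi211 (0.0242 and 0.0634) and 4930412C18Rik (0.0498 and 0.115). Of the 365 higher and 434 lower genes called only without it, 63 of the lower were among the 66 just described. The largest changes there were in Mup5, a major urinary protein gene with many close copies, which stood at 0, 0 and 0 CPM with DMSO and 0, 3.87 and 72.3 CPM with Bobcat339. Gm10143 stood at 0.253, 0.239 and 0 CPM with DMSO and 0.438, 20.6 and 0.177 CPM with Bobcat339, so it was high in Bobcat339 replicate 2 alone. Thbs4, Retnlb, Ano9 and Muc3a had low values in Bobcat339 replicates 2 and 3 and were higher in replicate 1. Retnlb, a goblet cell product, stood at 4.1, 3.06 and 3.3 CPM with DMSO and 2.41, 0 and 0.152 CPM with Bobcat339.

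The promoters of higher and lower genes differed in CpG content, which the selection of libraries did not use. Of 14148 tested protein-coding genes on chromosomes other than 18, 11457 had a RefSeq promoter (81.0%). In the 250 bases before the start, the ratio of observed to expected CpG was 0.6 or more in 62.3% of all these promoters, in 80.4% of those of higher genes and in 48.7% of those of lower genes. The medians were 0.700, 0.817 and 0.589. With only genes called both with and without Bobcat339 replicate 1 the shares were 81.0% and 46.8%. Among genes at a mean of 10 CPM or more, which hold more CpG-rich promoters, they were 82.3% for higher and 59.4% for lower genes beside 73.8% of all. Of motifs in the same window, the cyclic AMP response element TGACGTCA was found in 4.59% of higher, 1.59% of lower and 2.61% of all promoters, and the metal motif in 33.4, 28.8 and 29.0%. The heat shock motif was found in 9.85, 10.3 and 10.4%. Among genes at 10 CPM or more the cyclic AMP element was in 4.4, 1.43 and 2.83%, and the metal motif in 33.6, 32.6 and 30.7%. For the metal motif in windows of 100 bases, these genes had 18.1, 19.8 and 16.9%. TGACGTCA and TGCGCNC themselves hold a CpG, so their shares are not independent of CpG content. These are descriptions without a test.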

How the data were processed

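RNA was sequenced from 9 libraries that the labels call cultured hepatocytes. The table the authors deposited has 56691 genes and 9 library columns. Its values, as deposited by the authors after alignment and counting, were taken to be expected counts (estimated counts in whole numbers, not scaled between libraries). About 4 deposited counts were taken to be worth 1 read pair, because 43.7% to 45.6% of values from 4 to 40 were multiples of 4. This factor is an assumption, as read pairs were not counted, and the floor below rests on it. HISAT2 2.0.5, featureCounts 1.5.0-p3 and CASAVA 1.8 are named in the submitters' processing notes. Build, annotation and strand setting were not given in the sources used here, so reads of overlapping antisense genes cannot be told apart. Symbols were attached for 52073 genes (91.9%), and no per-sample column was left unused. Hepatocyte RNA sequencing is not described in the study's methods, so the test was chosen here.

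Counts were rounded, filtered by filterByExpr with the group and scaled by TMM. They were fitted by the quasi-likelihood method of edgeR 4.0.16 (R 4.3.3), in 1 fit over 9 libraries with a mean per group, and tested two-sided. The contrast was Bobcat339 minus DMSO, with p-values adjusted by Benjamini and Hochberg over all genes tested and called under 0.05. The biological coefficient of variation was 0.24. In each library 3 read pairs, or 12 deposited counts, were taken as the floor, which covers counting error only; no fold is given for a gene at or under it in all libraries of a group. An exact permutation test compared the shares of counts (SciPy 1.17.1, pandas 2.3.3, Python 3.11.15), and figures were drawn with matplotlib 3.10.9. The fit was also run on simulated data with the same spread (0.24) for all genes and no library set apart. That run does not cover a library such as Bobcat339 replicate 1, and its outcome is not reported here.

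The libraries, the 41 gene lists with 1029 entries (993 tested) and the 9 marker lists with 118 entries (103 tested) were chosen with earlier results of these data known. Lists are described by counts and medians, with no set test. Genes named are the 15 largest rises and 15 largest falls among called protein-coding genes (at least 1 CPM over the 6 libraries, groups not overlapping, called also without Bobcat339 replicate 1, no clone names), up to 3 called members per list with the smallest adjusted p (up to 2 with the highest level where none was called), 16 genes of the study and of the check of labels, 10 genes highest in Bobcat339 replicate 1, and up to 6 genes on each side whose call turned on that library. Any other gene is marked where named as chosen with its values in view, and some genes that the rule selects are not reported here. Promoters came from RefSeq (GRCm38.p6); the limit to chromosomes other than 18 was set after the first count of matches.

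The alternatives were DESeq2 1.42.0, RLE scaling, library size only, no filter, 1 CPM in 3 of the 6 libraries, the 6 libraries alone with and without Bobcat339 replicate 1, a replicate block, a 2-fold minimum, values divided by 4, and each of the 6 libraries left out in turn.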

Additional observations from a re-analysis of the deposited data

How the results depend on the processing

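Main counts were 2136 genes higher and 1666 lower. A 2-fold minimum left 66 and 125, and DESeq2 called 2147 and 2616. RLE scaling gave 1708 and 2000, library size only 1883 and 1877, no filter 1868 and 1339, a filter at 1 CPM in 3 of the 6 libraries 2174 and 1721, values divided by 4 2265 and 1950, and the 6 libraries alone 1863 and 1618 (2116 and 2000 without Bobcat339 replicate 1). With each library left out in turn the higher count ran from 1380 to 2370 and the lower count from 1046 to 1860. It was 1421 and 1064 without Bobcat339 replicate 2, 1380 and 1046 without DMSO replicate 1, and 1491 and 1102 without DMSO replicate 2. With the replicate number as a block the counts were 2336 and 1745. Same-numbered libraries deviated together by correlations of 0.0415, 0.0113 and 0.0967. The last, for replicate 3 of each group, was the highest of all pairs, while DMSO replicate 2 correlated best with Bobcat339 replicate 1 (0.0424). The labels give no link beyond the number, and whether same-numbered libraries were handled together was not tested.

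Of 201 named genes tested, 170 were called. Of these, 143 kept their call under every alternative that tested them, the 2-fold minimum aside. DESeq2 gave an adjusted p for 186 of the 201, and the 6 libraries alone for 197. Named genes that changed sign were never called: Atp5b, a respiratory chain gene, had log2 fold changes from -0.15 without Bobcat339 replicate 1 to 0.024 without Bobcat339 replicate 3. Hba-a1, a globin gene near the floor, went from -0.80 without DMSO replicate 3 to 1.04 without DMSO replicate 2, with 0.063 without Bobcat339 replicate 1 and 0.045 with the replicate block. The cause was not tested. With 2 CPM added in place of 0.5, 18 genes in place of 66 set Bobcat339 replicate 1 apart. In promoter windows of 100 bases the share rich in CpG was 82.7% for higher, 55.1% for lower and 67.1% for all genes. At this depth 691 tested genes were at or under the floor in all 6 libraries, and 6 of them were called higher and 19 lower; 67 were at 0 in all 6 and were tested through the other libraries of the series.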
